A study of Homo sapiens with 5 samples.

Results

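The genes described here belong to the p53 pathway: MDM2 and MDM4, which hold p53 in check, and 7 genes that p53 is known to switch on, ZMAT3, RRM2B, XPC, BTG2, POLH, SESN1 and PHLDA3. They were taken by symbol from a table of 57221 gene rows, and all 9 were found, each on 1 row. RNA was sequenced from NK92MI, a human natural killer (NK) cell line with an introduced IL2 gene. The groups were 2 libraries from cells given the solvent DMSO for 48 h and 3 libraries from cells given 10 µM UNC1999 for 48 h. UNC1999 inhibits EZH2 and EZH1, the methyltransferases of polycomb repressive complex 2. All libraries come from this 1 line, and the labels do not say whether each had its own culture, so a p-value here covers the spread between these libraries, which may be technical.

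The transcription factor p53 is normally kept low by MDM2, a ubiquitin ligase that marks it for destruction, and by MDM4, a related protein that binds MDM2 and covers the activating part of p53. DNA damage and other stresses free p53, which then switches on genes for cell cycle arrest, DNA repair, metabolism and cell death. MDM2 is itself one of those genes, which closes a feedback loop. Each target also has other inputs, so the level of a single target RNA does not measure p53 activity.

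The second promoter of MDM2 carries the feedback elements and is shown for that reason, with the elements of 3 other genes beside it. RefSeq promoter windows (GRCh38.p14, 250 bases before to 50 bases after a start site) were matched by symbol for 7 of the 9 genes, in 13 windows. They were searched for the p53 response element, taken as 2 adjoining half-sites of the p53 consensus with no spacer. The consensus reads the same on both strands. In the MDM2 window the stretch chr12:68808897-68809001 (plus strand) lies in an intron and held 2 elements, in capitals.
MDM2 second promoter: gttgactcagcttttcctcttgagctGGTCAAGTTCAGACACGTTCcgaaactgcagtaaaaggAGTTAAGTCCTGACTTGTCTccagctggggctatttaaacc
The first element had 2 mismatches to the consensus and began 94 bases before the start site at 68809017. The second had 3 mismatches and began 56 bases before it. Of all 35114 windows searched, 0.649% held an element with at most 2 mismatches and 5.2% one with at most 3. The windows at the first MDM2 promoter had 5 mismatches at best, a level that 70.5% of windows reach.

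The best elements of SESN1, XPC and POLH follow, with matches to the consensus in capitals and mismatches in lower case.
SESN1: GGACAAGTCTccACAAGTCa
XPC: GAAtTTGCCCAGACAAGCaa
POLH: GtGCAgGTTgAGcCTAGgTg
The SESN1 element (chr6:109009018-109009037, minus strand, intronic) and the XPC element (chr3:14178570-14178589, minus strand, in the first exon) had 3 mismatches each. The POLH element (chr6:43576088-43576107, plus strand, upstream of the gene) had 6, which 97.4% of windows reach. BTG2 and ZMAT3 had 4 mismatches at best and MDM4 had 5. These are matches of letters in short windows, not measured binding.

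Library totals lay between 8442908 and 8748106 counts, so 3 counts, the most that a count of 0 allows, correspond to 0.327 to 0.372 CPM (a gene's count scaled to the library's total and the normalization factors of the fit). This limit covers counting error only. The NK genes NKG7 (1578 to 1883 CPM), GZMB (1535 to 1824 CPM) and NCAM1 (169.7 to 227.5 CPM) were high in all libraries, whereas KLRK1 and TYROBP had at most 11 counts. The T cell genes CD3D, CD3G, CD8B and CD4, the B cell gene MS4A1 and the myeloid gene LYZ were at 0 in all 5 libraries. The B cell gene CD79A had 4 to 7 counts and CD79B at most 1. TRAC had 82.6 to 115.9 CPM, and the myeloid gene S100A9 had 10.2 and 10.9 CPM in DMSO and 3.76 to 5.78 CPM in UNC1999, while CSF1R had 5.09 to 6.71 CPM and CD14 at most 2 counts. The part of other cells in the results was not tested. UNC1999 replicate 2 stood apart from the other libraries of its group. Its counts differed from those of replicates 1 and 3 by a chi-square of 7.47 and 8.77 per degree of freedom, against 1.81 between replicates 1 and 3 and 3.14 between the DMSO libraries.

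The p53 pathway genes split in their response to UNC1999. MDM2, ZMAT3 and RRM2B were higher and POLH, BTG2 and XPC were lower, each by less than 2-fold, while MDM4 and SESN1 did not pass the test and PHLDA3 had too few counts. In bulk RNA, fewer cells that make a transcript and less of it per cell cannot be told apart. Of the 8 genes that passed the filter on low counts, 3 were called higher and 3 lower at an edgeR adjusted p under 0.05. The higher count fell without DMSO replicate 2. Without either DMSO library 1 control was left, and fewer of all genes were called as well. Both counts were 1 with offsets for GC content and transcript length, where 14.8% of all genes were called higher and 18.9% lower. Among all 13075 tested genes 15.7% were called higher, 19.5% lower and 35.2% in either direction. In each of the 6 called genes the 3 UNC1999 libraries did not overlap the 2 DMSO libraries, which held for 24.2% of all tested genes in the higher and 30.4% in the lower direction. The median log2 fold change of the 8 genes was -0.08, and that of all tested genes was -0.01.

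**Figure D1:**
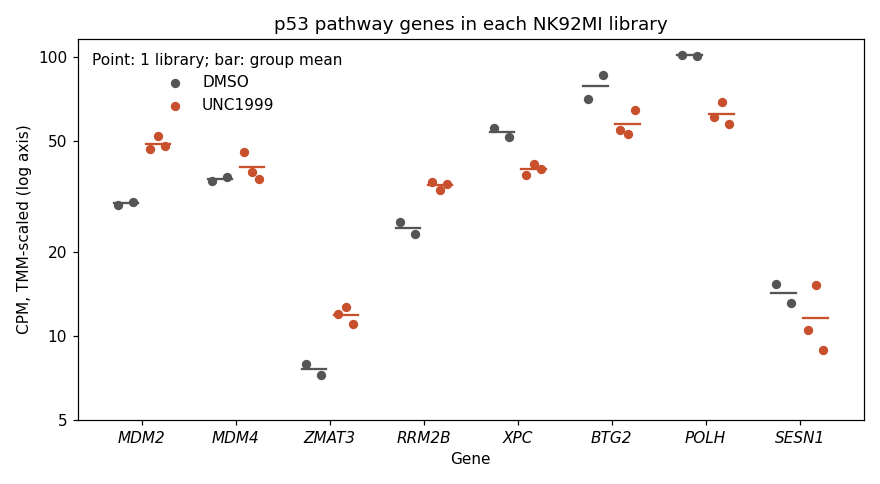
Level of the 8 tested p53 pathway genes (x axis) in CPM on a log axis (y axis). Each point is 1 library, grey for DMSO (n = 2) and orange for UNC1999 (n = 3), and bars are group means. For MDM2 the UNC1999 libraries sit between 46.8 and 51.9 CPM, above both DMSO libraries, and for POLH they sit between 57.2 and 68.8 CPM, below both.

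Of the 2 regulators, MDM2 rose. It had 29.4 and 30.2 CPM in DMSO and 46.8, 51.9 and 47.8 CPM in UNC1999. All 3 treated libraries were above both controls, and the gap between the groups was wider than the range within either. The DMSO mean was 29.8 ± 0.548 CPM (SD, n = 2) and the UNC1999 mean 48.8 ± 2.71 CPM (SD, n = 3). This is a 1.64-fold rise, 0.71 ± 0.12 (SE) in log2 units, at an edgeR adjusted p of 2.38e-05. MDM2 ranked at percentile 92.4 of all fold changes. The call was kept in all 16 alternative analyses, where the log2 fold change ran from 0.54 to 0.82. The gene (ENSG00000135679) lies on chromosome 12 from 68808176 to 68850686 in GENCODE 29 (GRCh38, whereas the authors' build was hg19).

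MDM4, the partner of MDM2, had 35.8 and 37.0 CPM in DMSO and 45.7, 38.6 and 36.4 CPM in UNC1999. The groups overlapped, since UNC1999 replicate 3 lay between the DMSO libraries, and only UNC1999 replicate 1 stood clearly above them. The log2 fold change was 0.15, with a 95% interval of -0.11 to 0.40 (edgeR adjusted p = 0.391). MDM4 (ENSG00000198625) lies on chromosome 1 from 204516379 to 204558120 (GRCh38). Within a library, MDM2 made up 45.1% and 45.0% of the summed MDM2 and MDM4 counts in DMSO and 50.5%, 57.3% and 56.8% in UNC1999. All 3 treated shares were above both control shares. The exact binomial 95% intervals, which cover counting error only, were 40.8 to 49.5% and 40.8 to 49.2% in DMSO and 47.1 to 54.0%, 53.9 to 60.7% and 53.1 to 60.4% in UNC1999. The share of UNC1999 replicate 1 thus overlapped the controls within counting error, and those of the others did not.

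Of the targets, ZMAT3 and RRM2B rose with MDM2. ZMAT3, a zinc finger protein that binds RNA and shapes splicing, had 7.95 and 7.25 CPM in DMSO and 11.97, 12.64 and 11.04 CPM in UNC1999. Its counts were low, 61 to 64 in DMSO and 97 to 116 in UNC1999, and the groups did not overlap. Its log2 fold change came to 0.65 ± 0.18 (SE; edgeR adjusted p = 0.00374). Without DMSO replicate 2 it was 0.58 and no longer called (edgeR adjusted p = 0.0662). In a fit with offsets for GC content and transcript length, described later, it was 0.14 and not called (edgeR adjusted p = 0.548). The gene (ENSG00000172667) lies on chromosome 3 from 179017223 to 179072279 (GRCh38).

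RRM2B encodes a small subunit of ribonucleotide reductase that supplies DNA building blocks outside S phase and for repair. It had 25.6 and 23.2 CPM in DMSO and 35.6, 33.3 and 34.9 CPM in UNC1999. The 3 treated libraries were close to one another and all above the controls. RRM2B rose by 0.50 ± 0.13 in log2 units (SE; edgeR adjusted p = 0.00203), and 0.43 without DMSO replicate 2, where the call was lost (edgeR adjusted p = 0.0686). With the offsets it was 0.08 and not called (edgeR adjusted p = 0.634). RRM2B (ENSG00000048392) lies on chromosome 8 from 102204502 to 102239118 (GRCh38). Its paralog RRM2, the S phase small subunit, and its partner RRM1, the large subunit, were not called, with log2 fold changes of -0.26 (edgeR adjusted p = 0.0533) and 0.13 (edgeR adjusted p = 0.364), although RRM2 was called lower with the offsets (-0.38, edgeR adjusted p = 8.19e-06).

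POLH and XPC, which act directly at damaged DNA, fell. POLH encodes DNA polymerase eta, which copies past ultraviolet lesions. It had 101.6 and 100.6 CPM in DMSO and 61.0, 68.8 and 57.2 CPM in UNC1999. The controls were nearly equal and every treated library lay far below them. The DMSO mean was 101.1 ± 0.686 CPM (SD, n = 2) and the UNC1999 mean 62.3 ± 5.89 CPM (SD, n = 3). Treated cells thus had 0.617 times the DMSO level, -0.70 ± 0.11 (SE) in log2 units, at an edgeR adjusted p of 7.9e-06. POLH ranked at percentile 3.82 of all fold changes, and its call was kept in all 16 alternatives (-0.76 to -0.42). It (ENSG00000170734) lies on chromosome 6 from 43576150 to 43615660 (GRCh38).

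XPC, the damage sensor that starts global nucleotide excision repair, had 55.8 and 51.7 CPM in DMSO and 37.7, 41.2 and 39.5 CPM in UNC1999. The groups were clearly apart. XPC changed by -0.44 ± 0.12 in log2 units (SE; edgeR adjusted p = 0.00267), and -0.39 without DMSO replicate 1, where the call was lost (edgeR adjusted p = 0.074). With the GC and length offsets XPC had -0.16 and was not called (edgeR adjusted p = 0.175). XPC (ENSG00000154767) lies on chromosome 3 from 14145147 to 14178783 (GRCh38). On the opposite strand, exons of AC093495.1 cover 23.8% of the exon bases of XPC, those of AC090004.1 cover 8.61% and those of LSM3 cover 6.63%. No source used here gives the strand setting of the counting, and reads from the shared bases cannot be assigned to 1 gene. Other members also share exon bases with other genes. For MDM2 these were 3.3% with AC025423.2 on the same strand and 5.91% with AC025423.4 on the opposite strand. The gene named CPM, on the opposite strand, shared 1.0% with MDM2 and had 21 to 47 counts. For SESN1 the shared bases were 7.09%, for PHLDA3 19.1% (same strand) and for POLH 0.113%. The last were shared with GTPBP2 on the opposite strand, which had 772 to 851 counts.

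Of the growth-restraining targets, BTG2, an antiproliferative protein that recruits the deadenylase that shortens mRNA tails, fell. It had 70.5 and 86.3 CPM in DMSO and 54.7, 53.1 and 64.5 CPM in UNC1999. The controls were widely spread, and UNC1999 replicate 3 came nearest to them, just below DMSO replicate 1. The log2 fold change was -0.45 ± 0.12 (SE; edgeR adjusted p = 0.00283), and -0.30 without DMSO replicate 2, where the call was lost (edgeR adjusted p = 0.179). With the GC and length offsets BTG2 had -0.08 and was not called (edgeR adjusted p = 0.568). BTG2 (ENSG00000159388) lies on chromosome 1 from 203305491 to 203309602 (GRCh38).

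SESN1, a stress protein that restrains mTORC1, had 15.4 and 13.1 CPM in DMSO and 10.5, 15.3 and 8.88 CPM in UNC1999. UNC1999 replicate 2 lay among the controls and the other treated libraries lay below them. The log2 fold change was -0.30, with a 95% interval of -0.66 to 0.06 (edgeR adjusted p = 0.196). Without UNC1999 replicate 2, the library that stood apart, it was -0.54 and called lower (edgeR adjusted p = 0.00874). More of all genes were called lower in that fit too, 3030 of 12880 against 2546 of 13075. Leaving out that library kept the calls of the 6 called genes. SESN1 (ENSG00000080546) lies on chromosome 6 from 108986437 to 109094819 (GRCh38).

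PHLDA3, which blocks AKT at the membrane, had 1 and 0 counts in DMSO and 0, 1 and 0 in UNC1999. It was not tested, and all 5 libraries were below the limit that a count of 0 allows. CDKN1A, the p53 target that arrests the cell cycle, was likewise near 0, with 2 and 0 counts in DMSO and 1, 2 and 1 in UNC1999. PHLDA3 (ENSG00000174307) lies on chromosome 1 from 201464383 to 201469237 (GRCh38).

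The direction of these genes ran with the GC content of their transcripts. RRM2B (36.4% GC), ZMAT3 (39.5%) and MDM2 (41.8%) were the 3 lowest in GC content and the 3 called higher. POLH (47.2%), BTG2 (50.3%) and XPC (52.5%) were the 3 highest of the 8 tested and the 3 called lower, and MDM4 (42.4%) and SESN1 (43.4%) lay between. Fold changes over all genes also varied with GC content. The 11019 annotated genes were split into 10 equal bins by GC content. In the bin that holds RRM2B the genes had a median log2 fold change of 0.44, in that of ZMAT3 0.35 and in that of MDM2, MDM4 and SESN1 0.18. For POLH the bin's median was -0.30, for BTG2 -0.37 and for XPC -0.27. The medians rose again at higher GC content, to 0.16 in the highest bin, so the relation was not a straight line. The part of GC content in the calls was not tested beyond the offsets that follow.

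**Figure D2:**
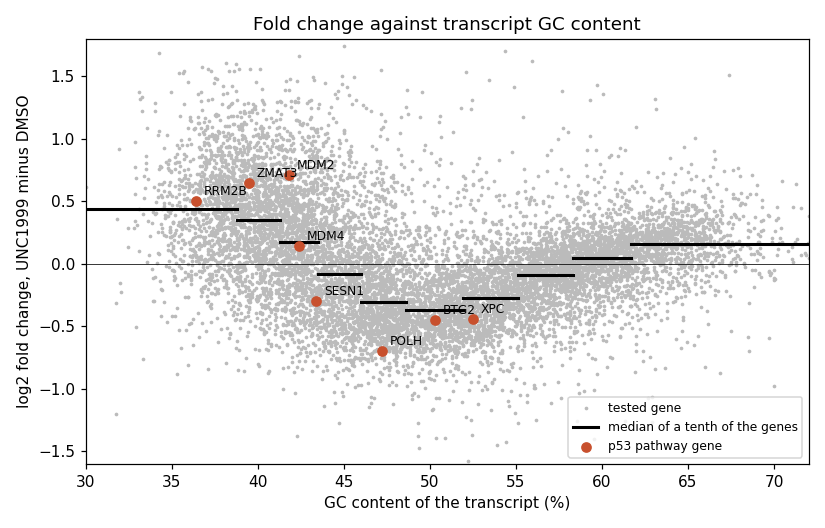
Log2 fold change, UNC1999 minus DMSO (y axis), against transcript GC content in percent (x axis). Grey points are tested genes, black lines the medians of the 10 bins by GC content and orange points the 8 p53 pathway genes. Genes outside the plotted ranges are not drawn. MDM2 lies 0.71 up where the median is 0.18, and RRM2B lies at 0.50 where the median is 0.44.

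In a fit with offsets that remove the trends with GC content and transcript length from every library, MDM2 and POLH were the members still called. On the log2 scale MDM2 changed by 0.56 ± 0.10 (SE) at an edgeR adjusted p of 1.16e-05, and POLH by -0.45 ± 0.08 (SE) at 1.12e-05. With offsets, calls were made for 14.8% of all genes in the higher and 18.9% in the lower direction, beside 1 and 1 of these 8. The values of ZMAT3, RRM2B, XPC and BTG2 moved toward 0 and were not called, as given above for each. MDM4 changed sign, from 0.15 to -0.19 (edgeR adjusted p = 0.139), and SESN1 had -0.36 (edgeR adjusted p = 0.0735). Offsets also take out any real change that follows GC content or length. They rest on the transcript chosen for each gene, of 2523 bases for MDM2 and 10073 bases for MDM4. Whether another choice of transcript would change these values was not tested.

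**Figure D3:**
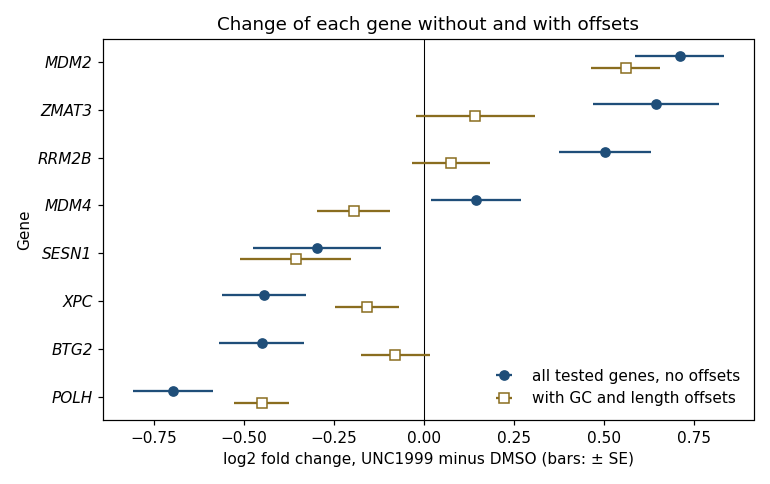
Log2 fold change, UNC1999 minus DMSO, with its SE (x axis) for each of the 8 tested genes (y axis), without offsets (filled circles) and with GC and length offsets (open squares). MDM2 stays at 0.56 and POLH at -0.45 with offsets, while ZMAT3, RRM2B, XPC and BTG2 lie between -0.16 and 0.14.

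The 3 genes whose levels over the 5 libraries were most like those of MDM2 were STRN, SRSF10 and PUM2. Likeness was the root mean square difference of centred log2 CPM, which was 0.014 for STRN, 0.0186 for SRSF10 and 0.0196 for PUM2. STRN had 21.4 and 21.6 CPM in DMSO and 33.0, 37.3 and 34.5 CPM in UNC1999, highest in the same treated library as MDM2.

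Regulators upstream of p53 were called about as often as all genes in the fit without offsets. Of 30 listed symbols, 26 were tested, and 5 were called higher, 6 lower and 15 not called, with a median log2 fold change of -0.00. Over all tested genes 15.7% were higher and 19.5% lower, so these counts are near the background. With offsets 6 were called higher and 6 lower of 25 tested, larger shares than the 14.8% and 18.9% of all genes in that fit. Both counts fell without DMSO replicate 1, where 1 control library was left and fewer of all genes were called as well. The higher count was 3 without UNC1999 replicate 3, beside 1821 of all 12906 genes tested in that fit. With the replicate number as a block it was also 3.

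CDKN2A, whose ARF product blocks MDM2, was abundant at 282.8 and 309.4 CPM in DMSO and 295.1, 244.6 and 305.8 CPM in UNC1999. It was not called (-0.07, edgeR adjusted p = 0.665). The counts are for the whole gene and do not show how much of them is ARF.

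The kinases that sense DNA damage or carry its signal to p53 did not share a direction. ATM, the kinase for double-strand breaks, rose from 19 and 14.5 CPM to 36.02, 30.5 and 38.9 CPM, or 1.07 ± 0.15 (SE) in log2 units, at an edgeR adjusted p of 6.14e-07, and by 0.49 with offsets (0.00224). ATR, the kinase for stalled replication, rose from 20.5 and 19.3 CPM to 40.1, 35.4 and 41.5 CPM (0.97 ± 0.13 SE; 0.52 with offsets). CHEK2, which ATM activates, fell from 25.1 and 27.6 CPM to 18.0, 17.9 and 15.1 CPM (-0.63 ± 0.14 SE; -0.51 with offsets). These 3 calls were kept in all 16 alternatives. CHEK1, another kinase of the list, was not called (-0.00, edgeR adjusted p = 0.979). With offsets CHEK1 was called lower (-0.24, edgeR adjusted p = 0.0219), but not with offsets and the replicate block (edgeR adjusted p = 0.0711).

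Among the other regulators, SIRT1, a deacetylase of p53, rose from 16.4 and 18.2 CPM to 26.4, 26.5 and 27.1 CPM (log2 fold change 0.62, 0.33 with offsets). Its call was lost with offsets and the replicate block together (0.29, edgeR adjusted p = 0.113). HUWE1, another ubiquitin ligase of p53, changed by -0.40 in log2 units (edgeR adjusted p = 0.00386, and 0.165 without DMSO replicate 1). RPL5, a ribosomal protein that can bind MDM2, had -0.43 (edgeR adjusted p = 0.00257, and 0.0741 without DMSO replicate 1). RPL5 has many processed pseudogenes, so its counts are uncertain.

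Further p53 targets were also called at about the rate of all genes, in both directions. In the list of targets for arrest, repair and metabolism, 35 of 51 symbols were tested, and 5 were called higher, 6 lower and 24 not called (median 0.02). In the list of targets for cell death, 14 of 20 were tested, and 4 were called higher, 2 lower and 8 not called (median -0.10). The 4 of 14 is a larger share than the 15.7% of all genes, in a short list. The 5 and 6 fell without DMSO replicate 1, and the 5 and the 4 for cell death fell without DMSO replicate 2. In both fits 1 control library was left, and fewer of all genes were called as well. Over both lists, 9 of 49 tested genes were higher and 8 lower, beside 15.7% and 19.5% of all genes. With offsets 8 were higher and 13 lower, beside 14.8% and 18.9% of all genes, and the lower share was above that of all genes.

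**Figure D4:**
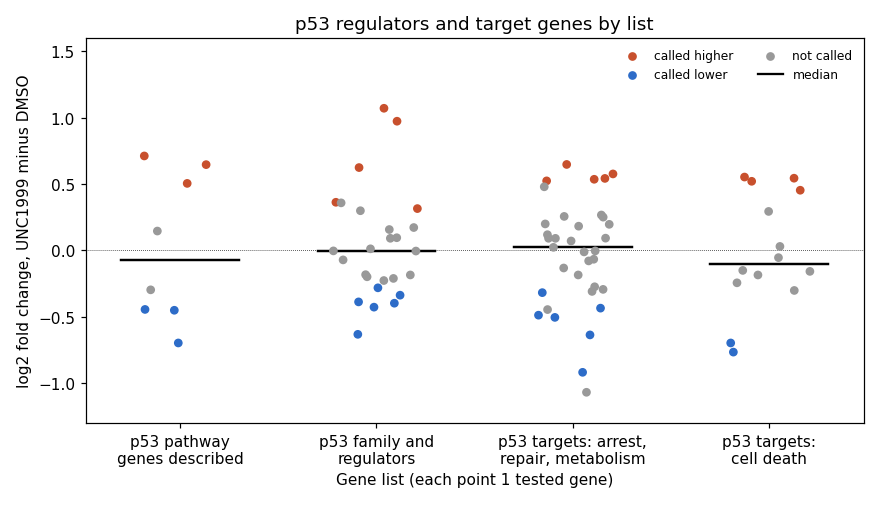
Log2 fold change, UNC1999 minus DMSO (y axis), of each tested gene (x axis) among the p53 pathway genes described, the regulators and both target lists, where orange points were called higher, blue points lower and grey points not called, and black bars are medians. Every list holds genes called in both directions, and the medians lie between -0.10 and 0.02.

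Of the targets for arrest, repair and metabolism, PRKX, a protein kinase, fell from 29.2 and 29.9 CPM to 19.9, 18.4 and 18.7 CPM (log2 fold change -0.64, -0.48 with offsets). RAP2B, a small GTPase, fell from 95.6 and 101.7 CPM to 65.8, 77.3 and 65.4 CPM (-0.50, -0.90 with offsets). Both calls were kept in all 16 alternatives. SUSD6 had -0.49 (edgeR adjusted p = 0.000528, and 0.0523 without DMSO replicate 1).

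In the other direction, ASCC3, a helicase used in alkylation repair and at stalled ribosomes, changed by 0.65 in log2 units (edgeR adjusted p = 5.88e-05), and by 0.19 without a call with offsets (0.114). FBXW7, a substrate receptor of an SCF ubiquitin ligase, had 0.58 (edgeR adjusted p = 0.00103) and 0.29 with offsets (edgeR adjusted p = 0.0501). TMEM68 had 0.54 (edgeR adjusted p = 0.00914), and its call was lost with offsets (0.22, edgeR adjusted p = 0.266) and without either DMSO library (edgeR adjusted p = 0.0977 without replicate 1 and 0.0581 without replicate 2).

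Genes listed as targets for cell death include BCL2L11, which encodes the BH3-only protein BIM. Whether p53 acts on each listed gene in these cells was not tested. BCL2L11 fell from 29.4 and 28.9 CPM to 18.6, 18.1 and 14.7 CPM (log2 fold change -0.77 ± 0.14 SE, and -0.45 with offsets). TNFRSF10B, the death receptor DR5 for TRAIL, fell from 47.7 and 40.6 CPM to 26.1, 30.4 and 25.0 CPM (-0.70 ± 0.13 SE; -0.38 with offsets). APAF1, the scaffold of the apoptosome, rose from 17.3 and 16.3 CPM to 24.6, 26.4 and 22.8 CPM (0.55 ± 0.14 SE; 0.52 with offsets). In all 16 alternatives these 3 genes kept their calls.

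PIDD1, a death domain protein that activates caspase 2 complexes, had 0.45 (edgeR adjusted p = 0.00377), with the call lost without DMSO replicate 1 (0.0571) or DMSO replicate 2 (0.0595). FAS, the death receptor for FAS ligand, had 0.54 (edgeR adjusted p = 0.0069), with the call lost without DMSO replicate 2 (0.0882) and with offsets (0.25, edgeR adjusted p = 0.202).

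The paralogs of these genes, among which RRM1 was also listed, included 2 higher and 3 lower of 13 tested, near the 15.7% and 19.5% of all genes. The translesion polymerases POLK and REV1, relatives of POLH, rose. POLK went from 5.59 and 5.59 CPM to 11.2, 11.2 and 11.95 CPM (log2 fold change 1.03, 0.59 with offsets) and REV1 from 17.8 and 19.3 CPM to 25.9, 29.5 and 29.01 CPM (0.60, 0.46 with offsets), opposite to POLH. BTG1, the closest relative of BTG2, fell from 36.6 and 38.6 CPM to 23.5, 24.7 and 22.4 CPM (-0.68, -1.07 with offsets), and TOB2, of the same family, fell as well (-0.57, -0.38 with offsets). POLK, REV1, BTG1 and TOB2 kept their calls in all 16 alternatives. ZMAT2 had -0.35 (edgeR adjusted p = 0.0173), a call kept in 7 of 16 alternatives and lost, among others, with any 1 library but UNC1999 replicate 2 left out (0.0736 and 0.183 without DMSO replicates 1 and 2, 0.13 and 0.0811 without UNC1999 replicates 1 and 3).

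Genes that work with XPC and POLH in repair included 3 higher and 2 lower of 15 tested, again near the 15.7% and 19.5% of all genes. REV3L, the catalytic subunit of polymerase zeta, which extends after translesion polymerases, rose from 12.3 and 11.7 CPM to 25.4, 21.5 and 26.3 CPM (log2 fold change 1.03 ± 0.15 SE; 0.53 with offsets), a call kept in all 16 alternatives. ERCC2, a helicase subunit of TFIIH, had 0.39 (0.33 with offsets) and was no longer called when DMSO replicate 1 (edgeR adjusted p = 0.0529), the other control (0.195) or UNC1999 replicate 1 (0.109) was left out. ERCC4, a subunit of the repair nuclease, had 0.67 (edgeR adjusted p = 0.137 without DMSO replicate 1; 0.25 and not called with offsets). ERCC3, the other TFIIH helicase, had -0.38 (edgeR adjusted p = 0.114 without DMSO replicate 1; -0.01 with offsets). DDB1, which helps XPC find lesions, had -0.27 and kept its call in 4 of 16 alternatives, with edgeR adjusted p = 0.483 without DMSO replicate 1, 0.0638 without DMSO replicate 2, 0.168 without UNC1999 replicate 1 and 0.126 without UNC1999 replicate 3. Without DMSO replicate 1, which left 1 control library, fewer of these genes were called higher than the 3, as were fewer of all genes.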

How the data were processed

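RNA sequencing of 5 libraries gave 1 table, deposited by the authors as raw counts of reads for each gene symbol. Per the submitters' processing notes the build was hg19, and HTSeq 0.13.5, STAR 2.7.9, fastp and edgeR 3.34.0 were used, in roles not stated. No source used here gives the annotation or strand setting. Columns were matched to samples by name.

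Genes were kept with filterByExpr and fitted in R 4.3.3 by the quasi-likelihood F-test of edgeR 4.0.16 (TMM scaling, UNC1999 versus DMSO, Benjamini-Hochberg over 13075 genes, threshold 0.05). The SE is the log2 fold change divided by the square root of F. The log2 CPM used a prior count of 2. GC content and length came from GENCODE 29 (longest principal transcript, else longest; 11019 genes, 84.3% of those tested). For the offsets, a library's log2 departure from the average library was smoothed by natural splines on GC content (6 df) and log2 length (4 df). The steps were tested on simulated counts.

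The members and lists were chosen with earlier results of these data known. The genes named include the 9 members, CDKN1A, CDKN2A and the 3 genes most like MDM2. Each list adds up to 3 called genes per direction by adjusted p. RRM1, RRM2 and CHEK1 were added after their values were seen. Some items that the rule covers are not reported here. Of the listed symbols, COP1, C12orf5, KIAA0247, C20orf108 and PIDD are second names of genes listed also under the symbol that the table uses. The 16 alternatives comprised other scalings, filters and tests (DESeq2 1.42.0, limma-voom 3.58.1), robust dispersion, a replicate block, each library left out in turn, annotated genes only, offsets, and offsets with the block.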

Additional observations from a re-analysis of the deposited data

How the results depend on the processing

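MDM2 and POLH kept direction and call in all 16 alternatives. ZMAT3, RRM2B, XPC and BTG2 were each called in 13, losing the call with offsets, with offsets and the block, and without 1 DMSO library. SESN1 was called in 1, and MDM4 in none, with its sign reversed with offsets (-0.19) and with offsets and the replicate block (-0.15). The number of the 8 genes called higher was 1 and lower 1 with offsets, with or without the block, against 3 and 3. With 1 library left out, 1 to 3 were higher and 2 to 4 lower; a lone DMSO library is then assumed to vary like the other group.

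Over the same fits, regulators had 3 to 7 higher and 2 to 8 lower, arrest and repair targets 2 to 6 and 2 to 7, cell death targets 1 to 4 and 2 throughout, and repair partners 1 to 4 and 0 to 2 (0 without DMSO replicate 1, with 1 at an unadjusted p under 0.05). Arrest and repair targets had 3 higher with the DESeq2 Wald test, 10 lower with offsets, and 3 higher with offsets and the block. Repair partners called lower numbered 1 with DESeq2 size factors, no filter, the stricter filter or robust dispersion. In edgeR they numbered 0 without factors (1 at an unadjusted p under 0.05) and 0 with offsets or with offsets and the block (0 unadjusted). The edgeR fit as reported, the DESeq2 Wald test and limma-voom each gave 2. Without either DMSO library, where 1 control was left, fewer of all genes were called than in the fit as reported.

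With the replicate block, regulators called higher numbered 3 and repair partners called lower 1; no count over the 9 members moved. Same-numbered libraries deviated together only weakly (correlations of 0.0658 and 0.0381). These deviations come from few libraries and include counting error, so the correlations cannot decide whether the numbers pair the samples. Leaving out normalization factors moved the median of all genes from -0.01 to 0.09 and the share of higher among calls from 44.7% to 62.9%. Low counts limit ZMAT3, SESN1 and PHLDA3. The cause of these changes was not tested.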
